A study of Mus musculus with 4 samples.

Results

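Mouse gene symbols that end in -ps, with or without a number, mark a pseudogene: a copy of a gene, named after it, that is not expected to make the same protein. Of the 25265 genes in the deposited count table of mouse testis, 299 had such a symbol, and they were chosen by that suffix alone. The table lists no gene with fewer than 10 counts over its libraries, so named pseudogenes below that level were not analysed here. All libraries were made from rRNA-depleted total RNA of whole testes of C57BL/6 mice at postnatal day 56. There were 2 libraries labelled control and 2 labelled Ythdf2-vKO, and the series title calls the mutants germ cell-specific. The labels give neither the promoter that drives the deletion nor the full genotype of the controls, and they do not say that the libraries came from separate animals, so p-values measure only the spread between these libraries. YTHDF2 is a cytoplasmic protein that binds N6-methyladenosine in RNA and promotes the decay of the bound transcript.

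Processed pseudogenes arise when a spliced messenger RNA is reverse transcribed and inserted elsewhere in the genome, and they lack introns and usually a promoter of their own. Unprocessed pseudogenes arise by duplication of the gene with its introns, and unitary pseudogenes are genes that lost their coding function without a duplicate. The testis is known for broad transcription of the genome, and copies of X-linked genes on autosomes are of interest there because the X chromosome is silenced during male meiosis. A young copy can be so similar to its source gene, called the parent below, that a short read fits both places, so similarity has to be read beside every count.

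All 299 genes were found in the GENCODE M21 annotation (GRCm38) under the same identifier and symbol. M21 annotated 181 as processed, 41 as unprocessed, 32 as transcribed unprocessed, 16 as transcribed processed, 8 as polymorphic and 3 as transcribed unitary pseudogenes. The suffix and the annotation differed for 18 genes, of which 13 were annotated as protein coding and 5 as noncoding RNA. Among the 13 were Btg1-ps2 and Btg1-ps1, 2 copies of an antiproliferation gene, and the ribosomal protein copies Rpl9-ps6, Rps12-ps3 and Rpl10-ps3. The longest transcript had a single exon in 218 of the 299 genes. The merged exon length had a median of 762 nt and ran from 184 to 12025 nt.

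The sequences that carry the comparisons below are shown here as stretches of 60 nt, 5′ to 3′ on the gene's own strand, read from the M21 transcripts. Positions are counted from 1 at the first base of the parent's coding sequence. The first set is bases 403 to 462 of Ppp1r2, the parent with the most counted series of copies, with the matching stretch of its 7 copies. It is the first stretch of 60 nt that aligned without a gap in all 7 copies. In it the X-linked copies Ppp1r2-ps7 and Ppp1r2-ps9 differ more from the parent than the 5 close copies. Capitals mark bases that differ from the parent. The copies lie on GRCm38 at chr17:6324181-6324240 (minus strand, Ppp1r2-ps1), chr6:90906235-90906294 (plus, Ppp1r2-ps2), chr19:30539087-30539146 (minus, Ppp1r2-ps3), chr9:66805465-66805524 (minus, Ppp1r2-ps4), chr17:6254305-6254364 (plus, Ppp1r2-ps6), chrX:22462119-22462178 (plus, Ppp1r2-ps7) and chrX:15110922-15110981 (minus, Ppp1r2-ps9).
Ppp1r2: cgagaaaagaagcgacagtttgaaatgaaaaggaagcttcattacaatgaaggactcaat
Ppp1r2-ps1: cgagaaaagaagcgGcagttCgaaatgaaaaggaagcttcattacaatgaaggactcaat
Ppp1r2-ps2: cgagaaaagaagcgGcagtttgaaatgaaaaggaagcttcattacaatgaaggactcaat
Ppp1r2-ps3: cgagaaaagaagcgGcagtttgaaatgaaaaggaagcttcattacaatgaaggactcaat
Ppp1r2-ps4: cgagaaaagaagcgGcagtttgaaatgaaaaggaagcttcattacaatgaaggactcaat
Ppp1r2-ps6: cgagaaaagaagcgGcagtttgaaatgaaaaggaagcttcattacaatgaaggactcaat
Ppp1r2-ps7: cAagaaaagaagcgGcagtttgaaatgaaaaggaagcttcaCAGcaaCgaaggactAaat
Ppp1r2-ps9: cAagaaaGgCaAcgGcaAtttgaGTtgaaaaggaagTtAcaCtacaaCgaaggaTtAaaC
The substitution A417G was present in all 7 copies. Ppp1r2-ps7 differed from the parent at 7 of these 60 positions and Ppp1r2-ps9 at 15, and the other copies at 1 or 2.

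The second set contrasts an identical copy with diverged ones. Tpt1 encodes the translationally controlled tumour protein, and bases 1 to 60 of its coding sequence recur without a change in Tpt1-ps3 (chr6:99878275-99878334, minus strand).
Tpt1: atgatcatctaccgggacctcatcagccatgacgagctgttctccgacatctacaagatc
Tpt1-ps3: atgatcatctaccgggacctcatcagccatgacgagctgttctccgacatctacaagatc
Kif4 encodes a kinesin motor that binds chromosomes and the central spindle, and bases 1 to 60 of its coding sequence are set against Kif4-ps (chr12:101145614-101145673, plus strand), with the 11 differing bases in capitals.
Kif4: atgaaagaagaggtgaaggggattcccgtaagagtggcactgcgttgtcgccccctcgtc
Kif4-ps: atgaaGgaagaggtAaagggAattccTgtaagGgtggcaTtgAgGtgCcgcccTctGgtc
Spn encodes sialophorin (CD43), a surface protein of white blood cells. Bases 607 to 666 are set against Spn-ps (chr15:90898423-90898482, minus strand), and here the capitals mark only the parent codon that is aligned with a stop triplet in the copy, by the substitution G637T.
Spn: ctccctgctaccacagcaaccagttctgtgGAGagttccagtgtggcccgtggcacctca
Spn-ps: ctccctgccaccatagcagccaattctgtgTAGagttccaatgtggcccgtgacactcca

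The libraries held 24862518 and 29561182 counts in control against 26298245 and 26265700 in Ythdf2-vKO. The libraries labelled Ythdf2-vKO did not have fewer Ythdf2 counts, which were 1193 and 1604 in control against 1774 and 1807 in Ythdf2-vKO. The log2 fold change of Ythdf2 was 0.35 (SE 0.13; Benjamini-Hochberg adjusted p = 0.238, edgeR quasi-likelihood). Counts over the whole gene would include transcripts that lack only a deleted part, and the labels do not name that part, so the genotype of the libraries is used here as labelled. Among marker lists of testis cell types, groups did not overlap and were higher in Ythdf2-vKO for 7 of 9 Sertoli cell, 5 of 7 Leydig cell, 5 of 8 spermatogonial, 3 of 5 erythrocyte and 3 of 6 endothelial genes, where 22.7% of all genes tested were. They were lower for 6 of 9 elongating spermatid and 5 of 9 spermatocyte genes, where 22.6% of all genes tested were. Of 7 round spermatid genes 2 were higher and 0 lower, and of 7 macrophage genes 1 was higher and 0 lower. Of 5 peritubular myoid genes 0 were higher and 0 lower. Summed Sertoli cell markers were 1007 and 1045 CPM in control against 1443 and 1265 CPM in Ythdf2-vKO, with none of the 9 genes at 0, and 1 of the 9 was called, against 0.393% of all genes tested. Spermatid markers of the elongating stage summed to 15003 and 12282 CPM in control against to 11635 and 11929 CPM in Ythdf2-vKO. In whole tissue, fewer cells of a type and less RNA per cell cannot be told apart.

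Named pseudogenes were a small part of the counted RNA. They took 34582 and 44933 counts in the control libraries against 37670 and 38772 in the Ythdf2-vKO libraries, between 0.139% and 0.152% of each library, and the groups overlapped. CPM below is edgeR's count unit scaled by TMM to library size, and CPM per kilobase allows levels to be compared between genes. The median named pseudogene had 0.517 CPM, or 0.703 CPM per kilobase of merged exon. Over the 1928 other genes annotated as pseudogenes the medians were 0.430 CPM and 0.604 CPM per kilobase, and over all genes they were 5.02 CPM and 1.88 CPM per kilobase. A mean of at least 1 CPM was reached by 112 of the 299 genes, at least 10 CPM by 33 and at least 20 CPM by 19. At the low end, between 4 and 15 of the genes had no count in a library and between 36 and 59 had 3 or fewer.

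Median levels by annotated type were compared per kilobase, with no test. The median was 0.749 CPM per kilobase in the 181 processed pseudogenes and 1.80 in the 16 transcribed processed ones. Unprocessed pseudogenes had a median of 0.477 CPM per kilobase and transcribed unprocessed ones 0.924. The label transcribed went with the higher median in both classes. The 5 noncoding RNA genes had a median of 13.2 CPM per kilobase, the 13 protein coding ones 0.455 and the 8 polymorphic pseudogenes 0.218.

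**Figure D1:**
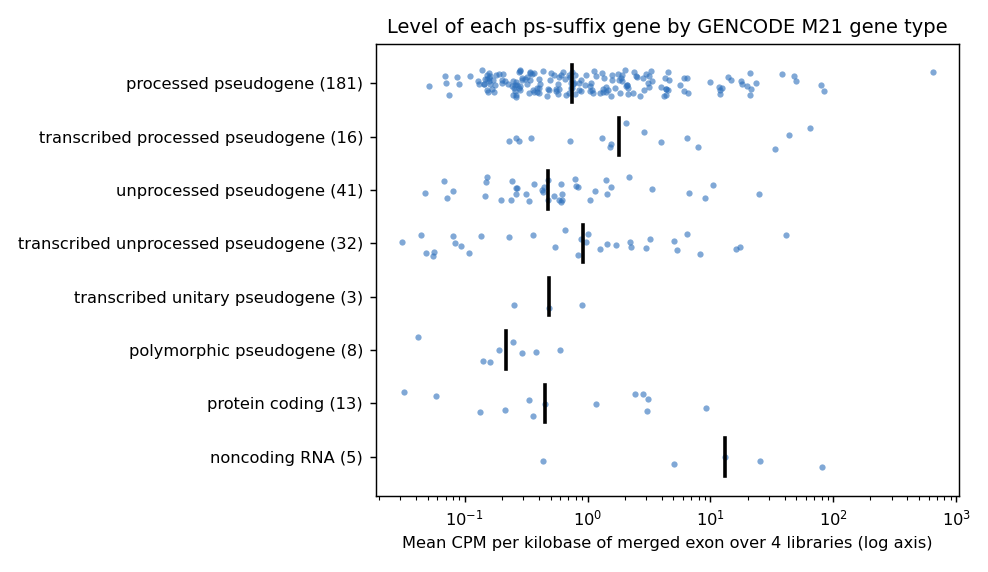
Mean CPM per kilobase of merged exon over the 4 libraries (log axis) for each gene with a ps suffix, by GENCODE M21 gene type. Points are genes, with random vertical spread, and black bars are medians, from 0.218 in polymorphic pseudogenes to 13.2 in noncoding RNA, while the highest processed pseudogene, Dynlt1-ps1, reached 640.4.

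The 10 most counted genes held 49.5% of all named pseudogene counts, and the first of them, Dynlt1-ps1, held 15.1%. Dynlt1-ps1, a processed copy of a cytoplasmic dynein light chain gene (chr6:135349408-135349749), had 224 and 235 CPM in control against 206 and 211 CPM in Ythdf2-vKO. Both Ythdf2-vKO libraries lay below both control libraries, by a log2 difference of -0.13 (SE 0.12; Benjamini-Hochberg adjusted p = 0.670, edgeR quasi-likelihood). Its 342 nt were 99.7% identical to Dynlt1b, and every 100-base word of it also occurred in transcripts of other genes. Dynlt1b itself had 2621, 3784, 2781 and 3066 counts in the same order of libraries, near those of Dynlt1a (2648, 4105, 2894 and 3150) and Dynlt1f (2649, 4146, 2742 and 3057). Reads that lie within a shared word cannot be told apart between the genes that share it. The word length of 100 bases was a chosen setting and not a read length. How the counting treated reads with several matches is not given in the sources used here.

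The next genes in the order of CPM shared less sequence with other genes. Spn-ps had 83.6 and 91.8 CPM in control against 77.9 and 92.7 CPM in Ythdf2-vKO, and it shared no 100-base word with another gene. Ppp4r1l-ps, a transcribed unprocessed copy with 16 exons related to a protein phosphatase 4 regulatory subunit, had 83.6 and 73.1 CPM in control against 75.5 and 76.7 CPM in Ythdf2-vKO, also with no shared word. Groups overlapped for both genes. Smkr-ps, annotated as noncoding RNA and named after a small lysine-rich protein gene, had 76.8 and 81.0 CPM in control against 60.3 and 76.1 CPM in Ythdf2-vKO, so that both control libraries were higher, with 1 Ythdf2-vKO library close to them.

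Tubb4b-ps1, a processed copy of a beta-tubulin gene, had 65.0 and 68.3 CPM in control against 59.4 and 60.5 CPM in Ythdf2-vKO. Gsdmcl-ps, a transcribed unprocessed relative of the gasdermin C pore-forming genes, had 47.1 and 42.2 CPM in control against 34.3 and 37.0 CPM in Ythdf2-vKO. For these 2 genes the control libraries were the higher ones. Tmem181b-ps, a transcribed unprocessed copy of a transmembrane protein gene, had 35.9 and 29.0 CPM in control against 40.2 and 32.7 CPM in Ythdf2-vKO, and its groups overlapped. Tpt1-ps3 had 43.0 and 40.1 CPM in control against 41.9 and 39.8 CPM in Ythdf2-vKO, also with overlap. It was identical to Tpt1 over all 519 nt, every 100-base word of it was shared, and its ratio to Tpt1 per kilobase was 0.519 (SD 0.0251, n = 4 libraries).

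Further genes above 20 CPM included 2 of the annotated noncoding RNAs. Tmem250-ps had 733 and 796 counts in control against 845 and 1115 in Ythdf2-vKO, higher in both Ythdf2-vKO libraries, and 368 of its 2483 nt lie opposite exons of 1810012K08Rik. Ndufb1-ps, named after a subunit of respiratory complex I, had 612 and 931 counts in control against 777 and 789 in Ythdf2-vKO. Mdm4-ps, an X-linked copy of the gene for a p53 inhibitor, had 580 and 885 in control against 827 and 890 in Ythdf2-vKO, and was 94.1% identical to Mdm4 with a mean ratio of 0.437 per kilobase. Znf41-ps, a zinc finger gene relative, had 644 and 807 in control against 659 and 581 in Ythdf2-vKO, and was 99.5% identical to Zfp991 over all its 2413 nt. Ube2n-ps1, an identical copy of a ubiquitin-conjugating enzyme gene, had 520 and 660 in control against 642 and 593 in Ythdf2-vKO. In CPM the groups of Mdm4-ps and Znf41-ps did not overlap, with Mdm4-ps higher and Znf41-ps lower in Ythdf2-vKO, and those of Ndufb1-ps and Ube2n-ps1 did.

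**Figure D2:**
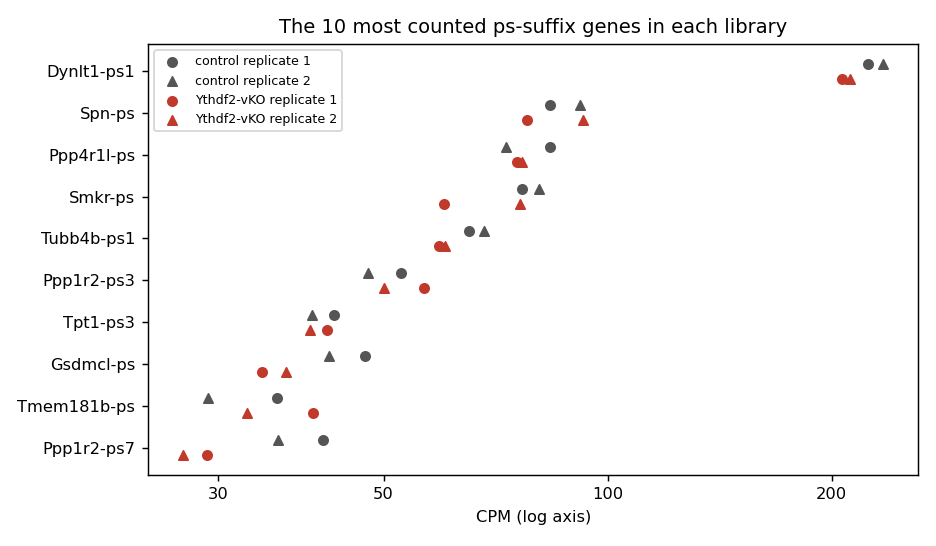
CPM (log axis) of the 10 most counted genes with a ps suffix in each library, grey for control and red for Ythdf2-vKO, circles for replicate 1 and triangles for replicate 2. Dynlt1-ps1 stands apart at a mean of 219.03 CPM, and Ppp1r2-ps7 shows red points at 28.9 and 26.9 CPM left of grey points at 41.5 and 36.0 CPM.

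Set against their parents, named pseudogenes were mostly minor. The symbol before the suffix gave 226 distinct names, and for 194 of the 299 genes the parent was itself in the table, as 137 distinct genes. The parents had a median of 90.2 CPM. A pseudogene had a median of 0.604% of its parent's counts, and 0.0252 of the parent's CPM per kilobase. Over the 84 pairs with at least 10 counts of both genes in every library, which leaves out low copies, the median ratio per kilobase was 0.150. Over all pairs it was 0.0219 and 0.0242 in control against 0.0282 and 0.0241 in Ythdf2-vKO. The ratio was under 0.01 in 58 pairs. The lowest 5 by the ratio, among pairs with at least 10 counts of both genes, were Tcp1-ps1, Ybx1-ps2, Kpna2-ps, Rps2-ps13 and Rpl7a-ps5, and their parents, a chaperonin subunit, an RNA-binding protein, an importin and 2 ribosomal proteins, had between 209.1 and 1548 CPM.

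The sequences of most pairs were close. A local alignment with the parent's longest transcript was found for 188 of the 194 pairs, with a median identity of 98.6% and a lowest of 66.5% in the best aligned stretch, which can be shorter than the copy. Identity in that stretch was at least 99% in 77 pairs and under 90% in 20. The whole copy was identical to the parent in 1 stretch in 13 pairs, which had a median of 1.89% of the parent's counts, from 0.180% (Rpl15-ps3) to 13.1% (Rpl31-ps8). No alignment with the longest transcript was found for Rhox11-ps2, Smarce1-ps1, Rbm6-ps1, Mark1-ps1, Mark1-ps2 and Mark4-ps. Rbm6-ps1 nevertheless aligned with 85.4% of its parent's coding sequence, at 96.8% identity. That share was 26.4% in Rhox11-ps2, 11.9% in Mark1-ps1 and Mark1-ps2, and 5.67% in Mark4-ps. In 158 of the 188 aligned pairs the parent was the best match among genes without a ps suffix that are not annotated as pseudogenes. Closer matches to other pseudogenes were not considered. Words of 100 bases shared with transcripts of other genes were absent in 74 of the 299 genes, made up over 50% of the words in 112, and made up all words in 30.

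The reading frame was compared where at least 90% of the parent's coding sequence was aligned, which held for 140 pairs. A frame was called open over the aligned part if the start codon was kept, with no aligned stop triplet and no frameshift. It was open in 77 pairs, and the other 63 were classed as broken, 36 with a stop and 45 with a frameshift. A copy without an ATG aligned with the parent's start codon was also classed as broken. That includes copies whose annotated transcript or alignment ended short of the start codon, since bases beyond the transcript were not read. The part of such copies in the values below was not tested. Copies with an open frame had a median of 1.12 CPM per kilobase and broken ones 0.413. The shared words differed in the same direction, with a median of 72.6% in open copies and 16.3% in broken ones, and the part of shared reads in this difference was not tested.

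**Figure D3:**
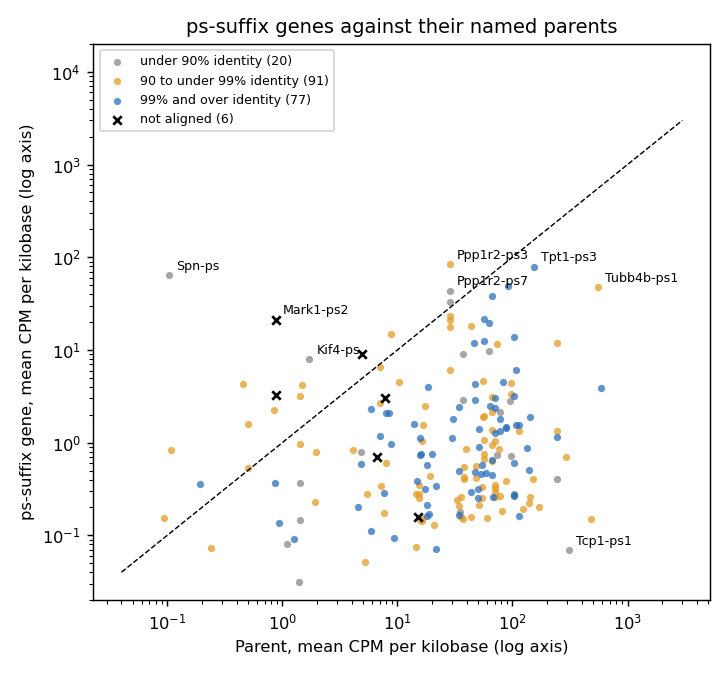
Mean CPM per kilobase over the 4 libraries of each of 194 genes with a ps suffix against its named parent (both axes log). Colours give percent identity of the local alignment with the parent's longest transcript, and crosses mark the 6 pairs without one. The dashed line marks equal levels, and 18 pairs lie above it, among them Spn-ps, Mark1-ps2 and Kif4-ps.

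Few copies exceeded their parent. The mean ratio per kilobase was above 1 in 18 pairs, and above 1 in every library in 16 of them, while the plain count was higher than the parent's in 7. Of the 77 pairs with at least 99% identity, 1 had a ratio above 1 (Gpr137b-ps, at 2.06, aligned over 672 nt), against 10 of 91 pairs between 90% and 99% and 4 of 20 below 90%. The highest ratio was that of Spn-ps. Spn had 6 and 24 counts in control against 12 and 12 in Ythdf2-vKO, while Spn-ps had 1955 and 2753 in control against 2086 and 2500 in Ythdf2-vKO. Its ratio per kilobase was 1131 and 398.0 in control against 603.2 and 722.9 in Ythdf2-vKO and rested on the few counts of the parent. The alignment with the parent's coding sequence covered 92.9% of it at 85.6% identity, with 2 aligned stop triplets and 7 frameshifts.

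Mark1-ps2 came next, with a ratio of 36.7 and 28.3 in control against 17.7 and 18.2 in Ythdf2-vKO to Mark1, a kinase of microtubule-associated proteins. Its sequence went against its name: no alignment with the longest Mark1 transcript was found. Its 384 nt were 96.1% identical to 4932414J04Rik, with every 100-base word shared with other genes. Tmc4-ps, a copy of a gene of the transmembrane channel-like family, had a mean ratio of 9.79 (SD 3.23, n = 4 libraries), and Cyp4b1-ps2, a cytochrome P450 copy, 9.77 (SD 10.6, n = 4 libraries) on 4 to 8 counts of the parent. Neither Spn-ps nor Tmc4-ps shared a 100-base word with another gene. For the pairs with ratios above 1, the parents' levels were low, except for Ppp1r2 at 126 CPM and Phgdh, an enzyme of serine synthesis, at 21.9 CPM.

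Kif4-ps, a transcribed processed pseudogene on chromosome 12 (chr12:101145614-101149758), had a diverged but nearly complete copy of the Kif4 coding sequence. The alignment with that sequence covered 98.6% of it at 81.1% identity, with the start codon kept, 1 aligned stop triplet and 29 frameshifts, and no 100-base word was shared. Kif4 lies on the X chromosome. Kif4-ps had 910 and 1148 counts in control against 736 and 718 in Ythdf2-vKO, and Kif4 had 193 and 314 in control against 272 and 244 in Ythdf2-vKO. The ratio per kilobase was 6.27 and 4.86 in control against 3.60 and 3.91 in Ythdf2-vKO, above 1 in every library and lower in both Ythdf2-vKO libraries. With 2 libraries against 2 the smallest two-sided p of an exact permutation test is 0.333, so that test could not pass a threshold of 0.05 for the ratio of any pair, and the ratios are given as a description.

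In 10 pairs the parent lay on the X chromosome, and in 9 of these the copy lay elsewhere. Eif2s3x-ps1, a chromosome 15 copy of a translation initiation factor gene, exceeded its parent per kilobase but not in counts. Its ratio per kilobase was 3.01 and 3.41 in control against 2.45 and 2.38 in Ythdf2-vKO. It had 135 and 143 counts in control against 119 and 97 in Ythdf2-vKO, and Eif2s3x had 154 and 144 against 167 and 140. The ratio rests on merged exon lengths of 1109 nt for the copy and 3812 nt for the parent. Mid1-ps1 on the Y chromosome had a mean ratio of 2.12 (SD 1.29, n = 4 libraries) at 0.191 CPM, too few counts for an order of libraries. The remaining 6 copies of X-linked parents, among them Apoo-ps, Atg4a-ps and copies of Rpl36a and Rpl10, had ratios from 0.0116 to 0.166. The reverse arrangement, an X-linked copy of a parent on another chromosome, was found in 15 pairs, and 2 of those had a ratio above 1, Ppp1r2-ps7 and Ppp1r2-ps9.

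The X chromosome was home to 34 of the named pseudogenes, or 11.4%, against 4.03% of the genes in the table and 7.57% of the other annotated pseudogenes. The X-linked ones had a median of 0.763 CPM, and those elsewhere 0.473 CPM. Of the X-linked ones 24 were tested, and their median log2 fold change was 0.18, beside -0.04 over the 149 tested elsewhere and 0.12 over all 844 X-linked genes tested. Groups did not overlap and were higher in Ythdf2-vKO for 10 of the 24, and lower for 4. Over all X-linked genes tested 31.2% were higher without overlap, and over all genes tested 22.7%. The higher levels of Sertoli cell, Leydig cell and spermatogonial markers lay in the same direction, and their part in these values was not tested.

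Ppp1r2 encodes inhibitor-2, a regulatory subunit of protein phosphatase 1, and its 7 copies were together the most counted series, with 16798 counts over the 4 libraries. The parent, on chromosome 16, had 3083 and 3375 counts in control against 3646 and 3343 in Ythdf2-vKO. Ppp1r2-ps3 had 1235 and 1429 counts in control against 1519 and 1350 in Ythdf2-vKO, and its ratio to the parent per kilobase was steady, at 2.88 and 3.04 in control against 2.99 and 2.90 in Ythdf2-vKO. It was 97.5% identical to the parent and shared 28.5% of its words. It had no aligned stop triplet and no frameshift, but no ATG was aligned with the parent's start codon, so its frame was classed as broken. The alignment covered 97.6% of the parent's coding sequence, and whether the start codon was lost was not tested. Ppp1r2-ps6, Ppp1r2-ps4 and Ppp1r2-ps1, at 96.8% to 97.7% identity, had mean ratios of 0.830, 0.743 and 0.622, and shared 54.9% to 95.02% of their words with other genes.

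Ppp1r2-ps2 had 33 and 154 counts in control against 194 and 42 in Ythdf2-vKO, and no other copy of Ppp1r2 differed as much within both groups. The 2 X-linked copies were the diverged ones, as the sequences above show, and neither shared a 100-base word with another gene. Ppp1r2-ps9 had 657 and 970 counts in control against 756 and 768 in Ythdf2-vKO, with a ratio from 1.04 to 1.45. Ppp1r2-ps7 had 970 and 1080 counts in control against 774 and 725 in Ythdf2-vKO. Its ratio was 1.83 and 1.86 in control against 1.24 and 1.26 in Ythdf2-vKO, so the libraries of a group lay close together and the groups apart.

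**Figure D4:**
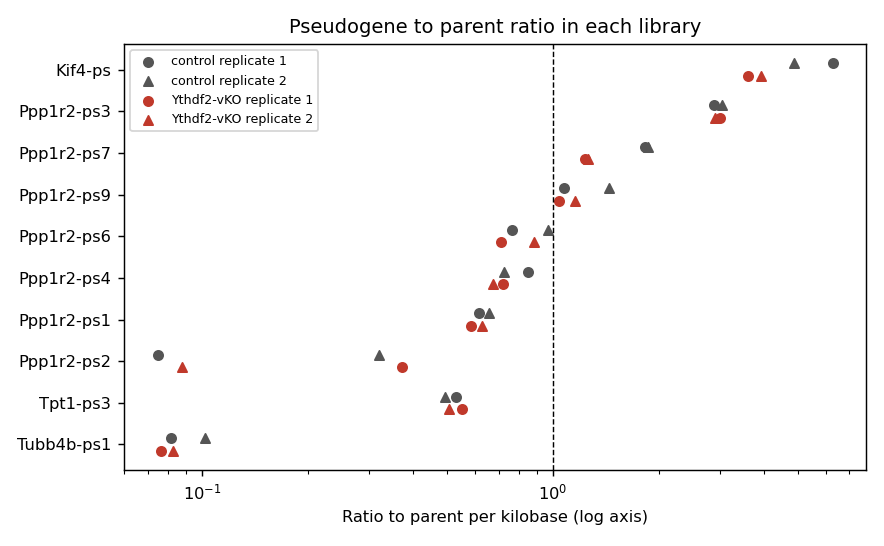
Ratio of 10 pseudogenes to their parents in CPM per kilobase (log axis), by library, grey for control and red for Ythdf2-vKO, with the dashed line at 1. Kif4-ps, Ppp1r2-ps7 and Ppp1r2-ps4 have both red points left of both grey ones. For Ppp1r2-ps4 the nearest points almost meet, at 0.723 in control and 0.721 in Ythdf2-vKO. Ppp1r2-ps3 stays between 2.88 and 3.04, and Ppp1r2-ps2 is spread from 0.0748 to 0.372 within both groups.

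Ribosomal proteins gave the largest family, with 75 copies of 37 parents, and 5 further copies were of Rpsa, a ribosomal protein gene whose symbol the family rule missed. The copies had a median identity of 99.3% to their parents and 0.348% of the parents' counts, and 2 of the 75 had a ratio per kilobase above 1, both of them copies of Rps10, which itself had 22 and 23 counts in control against 44 and 35 in Ythdf2-vKO. The most counted were Rpl31-ps8 at 14.5 CPM, Rpl10a-ps1 at 14.1 CPM and Rpl15-ps2 at 10.98 CPM. Rpl31-ps8 was identical to its parent over all 378 nt. Rpl15-ps2 varied within Ythdf2-vKO, with 311 and 251 counts in control against 403 and 194 in Ythdf2-vKO. Of the ribosomal copies 37 were tested, with a median log2 fold change of -0.17; groups did not overlap in 15, of which 5 were higher and 10 lower, against 22.7% higher and 22.6% lower over all genes tested. Their 37 parents were also all tested, and the median was -0.07, with 0 called by edgeR and 0 at an unadjusted p under 0.05, against 0.393% and 14.1% of all genes tested. On library totals these medians were -0.12 and -0.00872.

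Olfactory and pheromone receptor copies, 26 genes, were the other large family and had a median of 0.214 CPM per kilobase. Vmn2r-ps54, at 10.4 CPM, and Olfr1372-ps1, at 5.32 CPM, led them. Vmn2r-ps54 overlaps Vmn2r-ps55 on the same strand, so their counts can be split between them. Over all named pseudogenes, exons overlapped those of another gene on the same strand in 11 and on the opposite strand in 17, and 49 lay inside or across another gene on the same strand. Libraries from rRNA-depleted RNA also hold unspliced transcripts, and their part in the counts of those 49 was not tested.

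No named pseudogene passed the test between genotypes. Of the 299, 173 had enough counts to be tested, and 126 did not. By edgeR's quasi-likelihood F test (Benjamini-Hochberg adjusted p under 0.05), 0 of 173 were called, where 0.393% of all 21132 genes tested were, 0.279% higher and 0.114% lower. DESeq2's Wald test called 0 as well. The authors' deposited table holds values of the same test on the same counts, so it is no separate support. Of the 90 genes with an adjusted p in it, none was below 0.05 (smallest 0.0926). That table had 8 of the 299 at an unadjusted p under 0.05, of which 6 were among the 90. At an unadjusted p under 0.05 edgeR gave 15, or 8.67%, against 14.1% of all genes tested. Of these 5 were higher and 10 lower in Ythdf2-vKO, against 7.65% and 6.47% of all genes tested. Groups did not overlap in 70 of 173, or 40.5%, with 35 higher and 35 lower, against 45.3% of all genes tested. On library totals without TMM factors 45 were higher and 28 lower, a scaling under which the median over all genes tested was 0.07 on the log2 scale. With TMM their median log2 fold change was -0.04, and over all genes tested 0.00265. The median SE was 0.38 for the named pseudogenes and 0.20 for all genes tested, so the smallest differences that could be seen were larger for the pseudogenes.

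**Figure D5:**
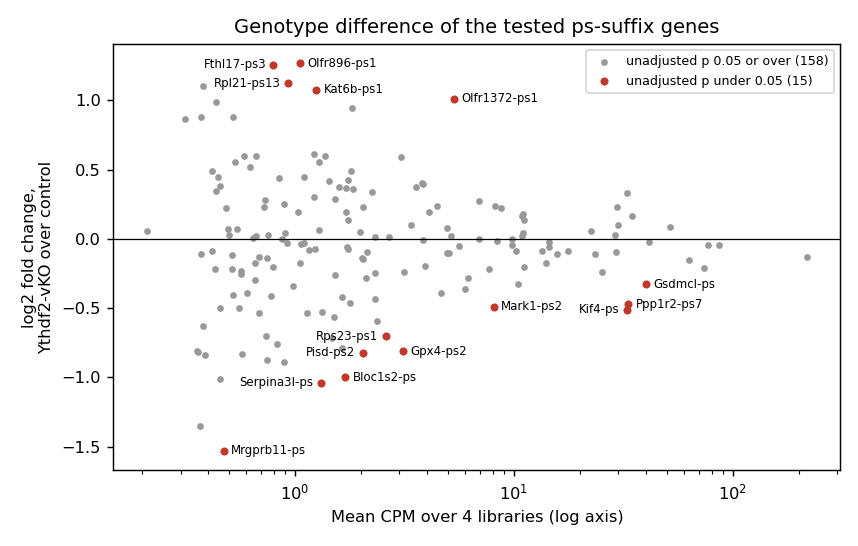
The log2 fold change (Ythdf2-vKO over control, edgeR) of the 173 tested genes with a ps suffix against mean CPM over the 4 libraries (log axis), with the 15 genes at an unadjusted p under 0.05 in red. Values spread from -1.53 to 1.27 at low CPM and narrow to the right, where Kif4-ps, Ppp1r2-ps7 and Gsdmcl-ps lie below 0.

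The smallest adjusted p was that of Kif4-ps, with a log2 fold change of -0.51 (SE 0.13; Benjamini-Hochberg adjusted p = 0.126, edgeR quasi-likelihood). Its parent Kif4 had a log2 fold change of 0.03 (SE 0.19). Ppp1r2-ps7 followed with -0.47 (SE 0.14; adjusted p = 0.167, edgeR), and its parent Ppp1r2 had 0.09 (SE 0.13). Both copies were lower in 2 of 2 Ythdf2-vKO libraries, and neither shared a 100-base word with another gene. Kif4-ps passed the edgeR threshold when control replicate 1 (adjusted p = 0.0282) or control replicate 2 (0.0310) was left out, and with 1 library left out its adjusted p ran from 0.0282 to 0.642. Ppp1r2-ps7 passed without control replicate 2, and with 1 library left out its adjusted p by edgeR ran from 0.0129 to 0.652. Gsdmcl-ps had -0.33 (SE 0.14) and Mark1-ps2 had -0.49 (SE 0.19), with 233 and 269 counts in control against 189 and 173 in Ythdf2-vKO.

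The other 6 with lower values among the 15 were less counted. Bloc1s2-ps, an almost identical copy of a lysosome biogenesis gene, had 49 and 73 counts in control against 28 and 33 in Ythdf2-vKO, a log2 difference of -0.998 (SE 0.35). Serpina3l-ps, a serine protease inhibitor relative that overlaps the span of Serpina3m, had 46 and 47 counts in control against 22 and 24 in Ythdf2-vKO. Gpx4-ps2, a copy of a glutathione peroxidase gene, had 92 and 121 in control against 36 and 86 in Ythdf2-vKO, with 1 Ythdf2-vKO library far below the other. Rps23-ps1 had 77 and 94 in control against 58 and 48 in Ythdf2-vKO, and 396 of its 425 nt lie opposite exons of Gm5148. Pisd-ps2, a copy of a phosphatidylserine decarboxylase gene, had 65 and 73 in control against 52 and 27 in Ythdf2-vKO. Mrgprb11-ps, a relative of Mas-related receptors, had the largest log2 fold change below 0, at -1.53 (SE 0.64), from 15 and 23 counts in control against 4 and 9 in Ythdf2-vKO. It was -1.07 without Ythdf2-vKO replicate 1 and -2.21 without Ythdf2-vKO replicate 2. In the same way Gpx4-ps2 went from -0.81 to -0.32 and -1.57, and Pisd-ps2 from -0.82 to -1.38 and -0.42.

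Of the 5 with higher values, Olfr1372-ps1, an odorant receptor relative, had the most counts, 114 and 67 in control against 178 and 203 in Ythdf2-vKO, with a log2 difference of 1.01 (SE 0.32; adjusted p = 0.196, edgeR). Its 9812 nt of merged exon overlap the span of Gm26551 on the same strand. Without control replicate 1 its adjusted p by edgeR was 2.6e-05, within a range up to 0.550 over the settings tried. Olfr896-ps1, which M21 lists as protein coding, had 20 and 12 counts in control against 35 and 45 in Ythdf2-vKO, and its edgeR adjusted p was 0.0486 without control replicate 1 and up to 0.688 elsewhere. Kat6b-ps1, a diverged copy of a histone acetyltransferase gene, had 13 and 31 in control against 31 and 61 in Ythdf2-vKO, with 1 library of each group at 31. Rpl21-ps13 had 19 and 11 in control against 39 and 29 in Ythdf2-vKO, and Fthl17-ps3, a relative of an X-linked ferritin heavy chain-like gene, had 5 and 21 in control against 32 and 29 in Ythdf2-vKO. These log2 values depended on single libraries. Without control replicate 1 and without control replicate 2 in turn, Olfr1372-ps1 was at 1.66 and 0.54, Olfr896-ps1 at 1.88 and 0.80, Fthl17-ps3 at 0.69 and 2.38, and Rpl21-ps13 at 1.77 and 0.64. Kat6b-ps1 was at 0.52 without Ythdf2-vKO replicate 2. For these genes all Ythdf2-vKO libraries lay above all control libraries in CPM.

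Some genes with a mean of at least 1 CPM outside those 15 are given next. Larger log2 fold changes occurred at lower CPM, such as -1.35 for Rpl10-ps6 at 0.369 CPM. It had 14 and 14 counts in control against 4 and 7 in Ythdf2-vKO. Ptma-ps1, a copy of the prothymosin alpha gene, had a log2 fold change of 0.59 by edgeR and in the authors' deposited table, and H3f3a-ps1, an X-linked copy of a histone H3.3 gene, had 0.60 in both. Fabp3-ps1, a copy of a fatty acid-binding protein gene, had 17 and 52 counts in control against 84 and 46 in Ythdf2-vKO, with overlap, and an edgeR adjusted p of 0.0207 without control replicate 2 and up to 0.970 elsewhere. On the other side, Mageb10-ps, an X-linked relative of a melanoma antigen family gene, had -0.79 by edgeR and -0.80 in the authors' deposited table. By edgeR it was -1.33 without Ythdf2-vKO replicate 1 and -0.40 without Ythdf2-vKO replicate 2, and Ptma-ps1 was at 0.31 without Ythdf2-vKO replicate 2.

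The parents were tested in the same fit. All but 1 of the 137 parents were tested, 136 in all, and edgeR called 0 of them, against 0.393% of all genes tested, with a smallest Benjamini-Hochberg adjusted p of 0.105. DESeq2's Wald test called 2, Alms1 and Mark4, and edgeR gave 12 at an unadjusted p under 0.05, 6 in each direction, against 14.1% of all genes tested. Their groups did not overlap in 40.4%, against 45.3% of all genes tested, with 32 higher and 23 lower. On library totals 43 were higher and 7 lower, where all genes tested also shifted, to 6111 higher and 3342 lower. With TMM the median log2 fold change of the parents was -0.00315. The ratio of copy to parent did not overlap between the groups in 68 of 194 pairs, or 35.1%, with 31 higher and 37 lower in Ythdf2-vKO. Among the 84 pairs with at least 10 counts of both genes in every library the ratio was higher in 10 and lower in 24, and overlapped in the others. With 2 libraries against 2, a share of 0.333 of pairs would not overlap if the labels made no difference. Pairs that share a parent, such as the 7 copies of Ppp1r2, are not independent, so the counts by direction are a description.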

How the data were processed

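The authors deposited 1 table of raw counts, with a row per gene and a column per library. Per the submitters' processing notes, HISAT2 2.1.0 and HTSeq 0.6.1p1 were used; the genome build, the use of strand and the treatment of reads with several matches are not given in the sources used here. The authors deposited, per the file headers, a mean normalized signal, a log2 fold change and its SE, a test statistic (a score), and a p-value with its adjusted value, under column names of DESeq2. These served only for comparison.

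Counts of all genes were fitted with edgeR 4.0.16 in R 4.3.3 (TMM scaling, filterByExpr, robust quasi-likelihood F test, genotype alone, two-sided, Benjamini-Hochberg over 21132 genes, called under 0.05), after the script was tested on simulated data. DESeq2 1.42.0 was an alternative. Fitted log2 fold changes use a prior count of 0.125. The SE given with them was derived from the test, as the absolute log2 fold change divided by the square root of the F statistic. Copies were aligned with the longest transcript of the parent by blastn (e-value 1e-10), and frames were read from an alignment with its coding sequence. Levels per kilobase use merged exon lengths from GENCODE M21. The genes with a suffix, the lists and the tests were chosen with earlier results of these data known. Named were the 10 genes with the highest CPM, the 5 largest differences each way at 1 CPM or more without overlap, the 5 highest and lowest ratios to the parent, numbered series, and genes of another type or with an overlap. The other genes at an unadjusted p under 0.05 and some single values were chosen after they were seen. Same-numbered libraries correlated at 0.0993 in their deviations from the group means over 19853 genes, so the numbers were not taken as pairs. Other settings are in the closing section.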

Additional observations from a re-analysis of the deposited data

How the results depend on the processing

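No named pseudogene was called under another size factor, another filter, the DESeq2 Wald test, no robust estimation or a GC offset alone. With the replicate number as a block, 3 were called (Kif4-ps, Olfr1372-ps1 and Ppp1r2-ps7), and with the block and a GC offset together 1 (Kif4-ps); the numbers do not show that libraries are paired. Leaving out 1 library, an alternative added after seeing the data in which the lone library is assumed to vary like the other group, gave from 0 to 3: without control replicate 1 Kif4-ps, Olfr1372-ps1 and Olfr896-ps1, and without control replicate 2 Fabp3-ps1, Kif4-ps and Ppp1r2-ps7. Over the parents, also added, 1 was called on library totals (Mark4), 2 by DESeq2, 3 with the replicate block, 3 with block and GC offset, and from 0 to 8 with 1 library left out (5 without control replicate 1, 8 without control replicate 2). The cause was not tested. The median log2 fold change of the tested pseudogenes was 0.0275 on library totals, and from -0.0702 to 0.0560 with 1 library left out, the highest without control replicate 2. The median ratio to the parent was 0.150 over pairs with at least 10 counts of both genes in every library, which leaves out low copies, 0.0182 with longest transcripts, and from 0.0240 to 0.0282 with 1 library left out; pairs without overlap numbered 34 under that count minimum. Log2 fold changes near 0 changed sign. Spn-ps was at 0.0225 on library totals and from -0.173 to 0.0789 with 1 library left out (0.0298 without control replicate 2). Ppp4r1l-ps was at 0.0279 on library totals and from -0.133 to 0.0509 with 1 library left out. Tpt1-ps3 was at 0.0435 on library totals, 0.0139 with the GC offset, 0.0149 with GC offset and block, and from -0.0711 to 0.0190 with 1 library left out (0.0116 without Ythdf2-vKO replicate 2). Ppp1r2-ps3 ran from -0.00553 to 0.174 with 1 library left out. Depth limits the 126 untested genes and those with few counts, and shared sequence limits the counts of the others.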
